A study of Mus musculus with 24 samples.

Results

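Proximal tubules of injured female mice were compared with proximal tubules of sham-operated females, to find which transcripts ischemic injury of the kidney leaves higher or lower in the tubules of this sex. The comparison rests on 6 of the 24 quantified libraries of the series, 3 sham and 3 injured, chosen by their labelled cell type, sex and treatment. All mice were of FVB, an inbred laboratory strain, and the labels name no transgene. The sham females carry the label "No injury" and the injured females "Acute Kidney injury", which the title of the series calls ischemic. Age, the length of ischemia and the time from injury to collection are not given in the sources used here. Tubule segments were picked by hand under the microscope after an enzymatic digestion that sham and injured kidneys shared, and poly-A messenger RNA was sequenced in bulk. Each library is therefore an average over many cells, in which fewer cells of a type and less RNA per cell cannot be told apart.

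The proximal tubule reclaims most of the filtered sodium, glucose, amino acids, phosphate and protein, burns fatty acids to pay for it, and is the segment that ischemia damages most readily. Damaged proximal cells are known to lower their transporters, switch on injury proteins such as Kim-1 (Havcr1) and lipocalin-2 (Lcn2), and re-enter a developmental programme marked by Sox9 and Vcam1. The later segments, namely the thick ascending limb, the distal convoluted tubule and the collecting duct with its principal and intercalated cells, carry their own channels and transporters. Several widely used injury genes, among them Lcn2, Clu and Spp1, are also transcribed in those later segments, so they are described apart from genes that mark injury of the proximal cell.

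The 3 sham libraries held 32592517, 41394327 and 36188108 estimated reads and the 3 injured libraries 45219984, 41703814 and 44543672. Every injured library was thus deeper than every sham library. Reads fell on 19422, 21703 and 19966 genes in sham and on 24269, 24378 and 22664 genes in injured libraries, again without overlap. Among 3612 genes of moderate depth (a mean of 10 to 50 reads over the 12 tubule libraries of both sexes), 21.5%, 7.86% and 18.5% had no read in the sham libraries, against 3.07%, 2.96% and 4.93% in the injured ones. Within a group, log2 CPM (counts scaled to the normalised library size) correlated at 0.932 to 0.952 across genes in sham and at 0.968 to 0.984 in injured libraries. The proximal markers Lrp2, the megalin gene, and Slc34a1, a phosphate carrier gene, stood at 2013 CPM or more in all 6 libraries. Umod, a thick ascending limb gene described below, stood above Lrp2 in every injured library, so these levels do not measure purity.

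Some libraries stood apart. The Y-linked gene Ddx3y, which females lack, was read at 1.66 CPM in sham library 1 and 1.55 CPM in injured library 3, against 0.0240 CPM or less in the other 4 and 52.4 to 103.8 CPM in male tubules. Slco1a1, an organic anion carrier far higher in males, followed the same libraries, at 47.8 CPM in sham library 1 and 3.70 CPM in injured library 3 against 0.243 CPM or less in the other 4. Injured library 3 also had few reads of podocyte genes, with Nphs1 at 0.0892 CPM against 11.3 to 25.6 CPM in the other 5. Sham library 3 held the most smooth muscle and renin transcripts, with Myh11 at 49.7 CPM and Ren1 at 86.1 CPM. These 3 marker genes were chosen after their values were seen. The part of depth, of these other transcripts and of the Y-linked reads in the results below was not tested. Counts are also given without sham library 1 and injured library 3, the pair with Y-linked reads.

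Of 16909 genes tested, 805 rose after injury and 362 fell in the fit of the 6 female libraries (edgeR's quasi-likelihood test, Benjamini-Hochberg adjusted p under 0.05). That is 4.76% of genes up and 2.14% down, or 6.90% in all, and the median log2 change over all genes was 0.00. Rises were larger than falls: 495 rises went beyond 1 on the log2 scale, but only 24 falls went beyond -1. The libraries of the groups did not overlap for 4754 genes, 28.1% of those tested. With sham library 1 and injured library 3 both left out, 733 genes passed, 598 of them shared with the 1167. Leaving out single libraries gave 347 genes without injured library 1, 461 without injured library 2, 628 without sham library 2, 798 without sham library 1, 964 without injured library 3 and 972 without sham library 3. Correcting for the transcript lengths left 371 genes, 298 up and 73 down, a share of rises of 80.3% in place of 69.0%. When the 6 male tubule libraries entered the same fit, only 2 genes passed for females (0.0109% of 18369), Casr and Mecom, with 2032 genes at an unadjusted p under 0.05. The common coefficient of variation was then 0.392 on 8 residual degrees of freedom, against 0.282 on 4 in females alone. The results below come from the fit of the 6 female libraries unless another is named. Where 3 values of a group are given they belong to libraries 1, 2 and 3, changes are log2 changes ± SE, and a gene is said to be lost without a library where leaving that library out took its adjusted p to 0.05 or above. The authors' deposited table of this comparison holds 497 genes past that threshold, 394 higher and 103 lower, or 2.50% of 19884 genes with a p. Of these, 321 passed here too, none in the opposite direction. The rest of the 1167 genes called here did not pass there or have no p there. None of the 7 proximal tubule markers that fell here passed there (DESeq2, adjusted p from 0.115 for Dab2 to 0.849 for Gatm). Run here on the 6 female libraries, DESeq2 called falls for 14 of the 30 tested proximal tubule markers and limma voom for 9. Among the genes described below as early response genes only Arc passed there (adjusted p = 0.00505), with the others from 0.0505 (Dusp5) to 0.565 (Cyr61).

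Transcripts of the distal nephron were higher in the injured libraries across its segments. Over 5 marker lists of the segments beyond the thin limb, 61 of 92 tested genes rose and 1 fell, with a median log2 change of 1.48 against 0.00 for all genes. The groups did not overlap for 77 of the 92, beside 28.1% of all genes tested. Without sham library 1 and injured library 3, 56 rose, and leaving out 1 library at a time gave 45 (without injured library 1) to 66 (without sham library 3). The plot of gene lists sets these beside the injury and metabolic lists.

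**Figure D1:**
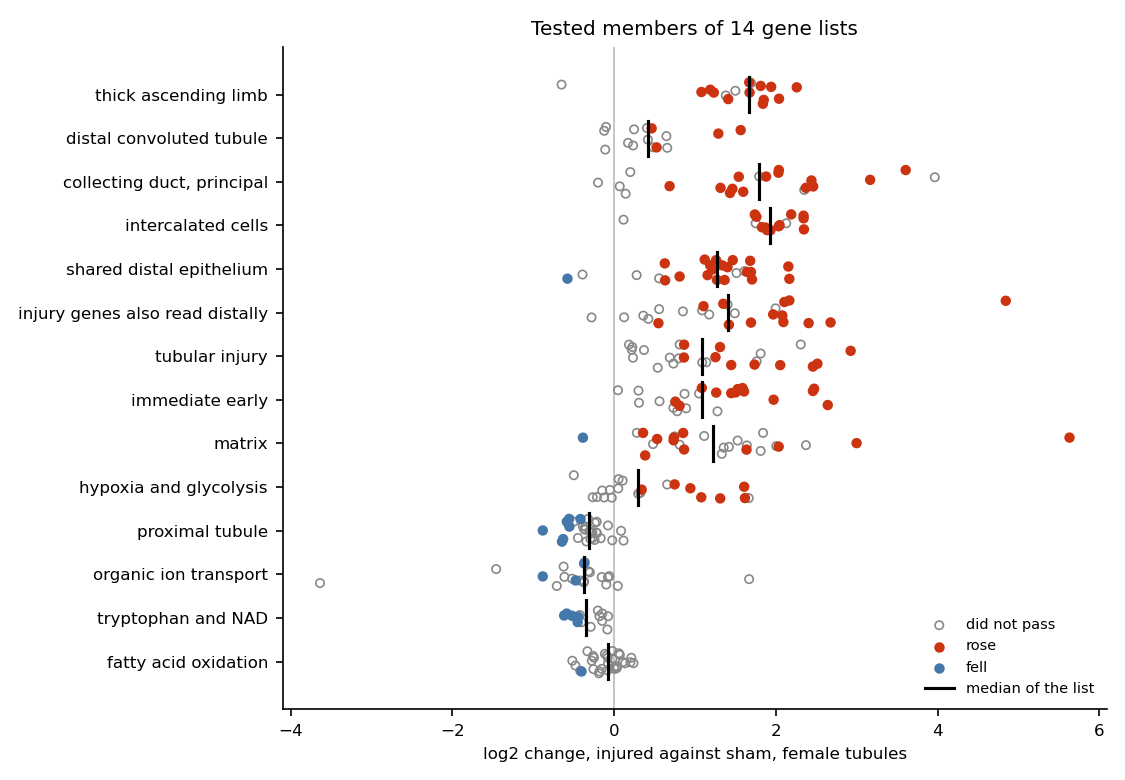
Log2 change (injured against sham, 6 female libraries) of each tested member of 14 gene lists, with filled circles for genes past an adjusted p of 0.05, open circles for the others and a black bar for the list's median. The medians of the thick ascending limb, principal and intercalated lists lie at 1.67, 1.79 and 1.93, and that of the proximal tubule list at -0.31.

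The thick ascending limb, which reabsorbs salt without water, showed rises in most of its markers. Of its 16 tested markers 12 rose and none fell, with a median log2 change of 1.67, and 11 to 14 rose when single libraries were left out. Umod (ENSMUSG00000030963.6; chromosome 7, 119462711 to 119479282, GRCm38), which encodes uromodulin, the main protein of normal urine, was read at 819, 1197 and 1264 CPM in sham and 4249.6, 5311 and 3929 CPM in injured libraries. All injured libraries lay above all sham libraries, a 4.11-fold rise (log2 change 2.04 ± 0.19, adjusted p = 0.00114). Per transcript length its level was 444 ± 121 TPM in sham and 2019 ± 318 TPM in injured libraries (SD, n = 3). Slc12a1 (chromosome 2, 125152505 to 125230002), the loop diuretic target NKCC2, was read at 227, 261 and 289 CPM in sham and 871, 1160.4 and 752 CPM in injured libraries (log2 change 1.84 ± 0.17, adjusted p = 0.00108). Casr (chromosome 16, 36493696 to 36562141), the calcium-sensing receptor, was read at 16.9, 19.3 and 19.4 CPM in sham and 57.1, 58.6 and 61.9 CPM in injured libraries. Its replicates lay close together in both groups, and its 3.2-fold rise (log2 change 1.68 ± 0.09, adjusted p = 0.000339) was among the smallest adjusted p-values of the comparison. Kcnj1, the potassium channel ROMK, went from 141, 122 and 109 to 277, 259 and 250.4 CPM (log2 change 1.08 ± 0.10, adjusted p = 0.00128). Egf, the precursor of epidermal growth factor, went from 1002, 1009 and 1081 to 2844, 2461 and 1745 CPM (log2 change 1.19 ± 0.16, adjusted p = 0.00561). The tight junction genes Cldn16 and Cldn19, which let calcium and magnesium pass between cells, rose by 1.85 ± 0.25 and 1.67 ± 0.26, and the transcription factor gene Irx1 by 1.94 ± 0.27, on the log2 scale. These 8 genes passed in each of the 6 fits that left out 1 library. Foxq1, a transcription factor gene on the same list, went the other way without passing, at 49.5, 69.4 and 119 CPM in sham and 49.4, 60.9 and 41.7 CPM in injured libraries (log2 change -0.65 ± 0.29, adjusted p = 0.25). The authors' deposited table gives Umod a log2 change of 1.76 ± 0.48, adjusted p = 0.00152.

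**Figure D2:**
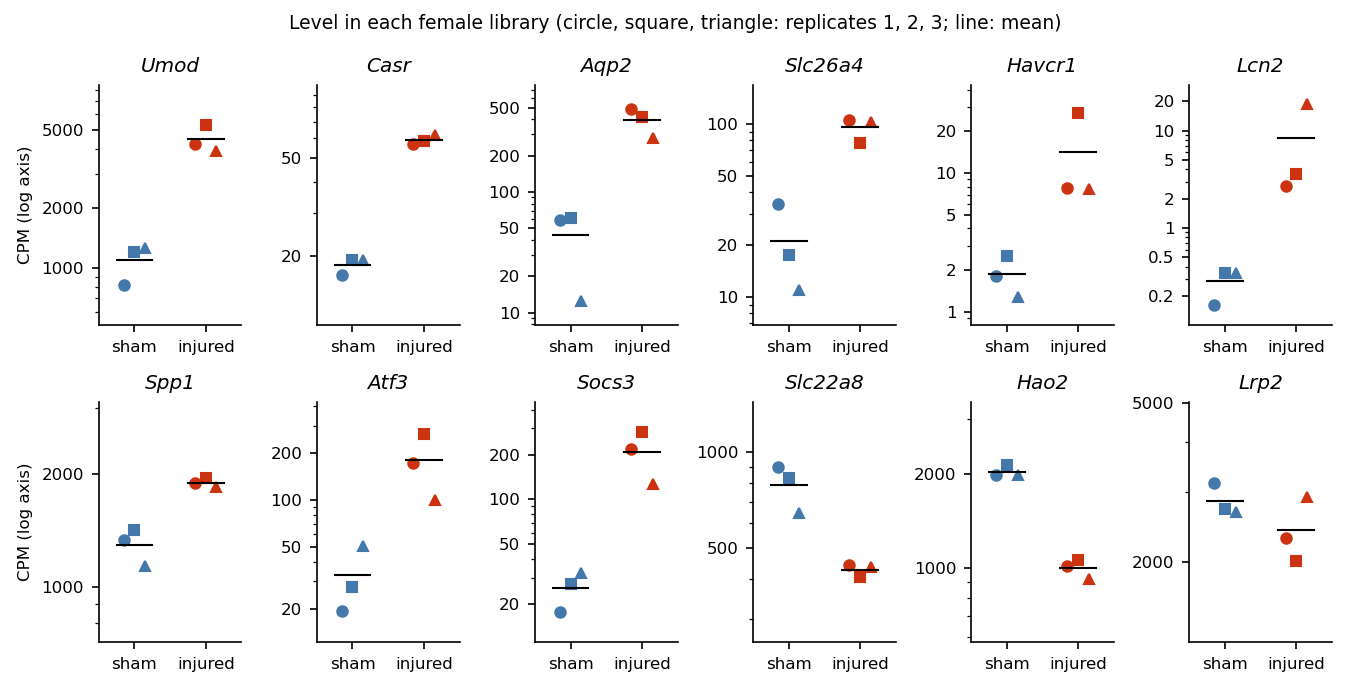
CPM of 12 genes in each of the 6 female tubule libraries on log axes, with circles, squares and triangles for replicates 1, 2 and 3 and a line at the group mean. Sham and injured libraries do not overlap for 11 of the 12 genes, and Lrp2 is the one that overlaps.

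The distal convoluted tubule, the thiazide-sensitive segment, changed in fewer markers. Of 15 tested markers 4 rose and none fell, with a median log2 change of 0.42. The 4 were the calcium channel gene Trpv5, the calcium-binding protein gene S100g and the kinase genes Wnk4 and Wnk1, which set the activity of the sodium chloride cotransporter. Trpv5 was read at 7.18, 4.83 and 5.22 CPM in sham and 18, 12.8 and 20.1 CPM in injured libraries (log2 change 1.57 ± 0.22, adjusted p = 0.00634). S100g went from 168, 92.3 and 111 to 296, 264 and 347 CPM (log2 change 1.29 ± 0.21, adjusted p = 0.0117). Both pairs of groups stayed apart, with every injured library above every sham library. Slc12a3, the thiazide-sensitive cotransporter itself, was read at 396, 364 and 271 CPM in sham and 549, 469.6 and 424 CPM in injured libraries and did not pass (log2 change 0.48 ± 0.15, adjusted p = 0.104), although its libraries did not overlap. Calb1, the calcium buffer of this segment, came just short of the threshold (log2 change 0.65 ± 0.17, adjusted p = 0.0568). Wnk4 lost its call without sham library 2 or injured library 1, and Wnk1 without sham library 2 or 3 or injured library 1 or 3. The summed level of the list overlapped between groups, at 11031, 11963 and 10172 TPM in sham and 12017, 11298 and 10039 TPM in injured libraries.

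Principal cells of the collecting duct take up water through aquaporins under vasopressin and sodium through the epithelial channel ENaC. Of 21 tested markers 14 rose and none fell, with a median log2 change of 1.79. Aqp2 (chromosome 15, 99579055 to 99584547), the vasopressin-regulated water channel, was read at 58.3, 60.8 and 12.6 CPM in sham and 485, 416 and 281 CPM in injured libraries. Sham library 3 was the lowest of all, the lowest injured library lay above the highest sham library, and the rise was 8.98-fold (log2 change 3.17 ± 0.52, adjusted p = 0.0121). Avpr2, the vasopressin receptor, went from 4.41, 3.53 and 1.08 to 13.5, 19.4 and 16.8 CPM (log2 change 2.46 ± 0.43, adjusted p = 0.0145), a call that was lost without sham library 2 or injured library 2. Aqp3, the exit channel for water on the blood side, went from 46.9, 47.8 and 31.1 to 133, 117 and 90.4 CPM (log2 change 1.43 ± 0.19, adjusted p = 0.00485). All 3 ENaC subunit genes rose: Scnn1a by 1.54 ± 0.15, Scnn1b by 1.88 ± 0.37 and Scnn1g by 2.03 ± 0.33 on the log2 scale. Scnn1a passed in every fit that left out 1 library, Scnn1g was lost without sham library 2 or injured library 1, and Scnn1b without sham library 2 or any injured library. Hsd11b2, the enzyme that shields the mineralocorticoid receptor from cortisol and corticosterone, was read at 51.1, 44.1 and 11.9 CPM in sham and 199, 168 and 187 CPM in injured libraries (log2 change 2.37 ± 0.44, adjusted p = 0.0177) and was likewise lost without sham library 2 or injured library 1. Mecom, a transcription factor gene, went from 18.4, 18.3 and 19.4 to 53.6, 53.8 and 47.2 CPM (log2 change 1.46 ± 0.09, adjusted p = 0.000433). The transcription factor gene Gata2 rose by 2.04 ± 0.23, the stanniocalcin gene Stc1 by 3.61 ± 0.56 and the prostaglandin E synthase gene Ptges by 2.44 ± 0.38, each with no overlap and each in all 6 fits that left out 1 library.

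Intercalated cells, which secrete acid or base, gave the highest median of the distal lists. Of 15 tested markers 12 rose and none fell, with a median log2 change of 1.93. This count went to 6 without sham library 2 and 7 without injured library 1, and stood at 10 to 14 in the other fits that left out 1 library. Slc26a4 (chromosome 12, 31519827 to 31559969), the chloride and bicarbonate exchanger pendrin of base-secreting cells, was read at 34.3, 17.4 and 10.9 CPM in sham and 105, 77.3 and 103 CPM in injured libraries. Sham library 1 was the highest sham library and still lay below every injured one (log2 change 2.19 ± 0.36, adjusted p = 0.0121), and the call was lost without sham library 2 or injured library 1. Slc4a1, the anion exchanger of acid-secreting cells, went from 18.9, 12.5 and 6.1 to 49.9, 46.3 and 57.1 CPM (log2 change 2.04 ± 0.34, adjusted p = 0.0122), lost without sham library 2. Atp6v1b1, a proton pump subunit, went from 38, 30.5 and 19.1 to 105, 86.9 and 101 CPM (log2 change 1.74 ± 0.22, adjusted p = 0.00407). Car15, a membrane carbonic anhydrase, was read at 38.4, 33.6 and 40.8 CPM in sham and 148, 128 and 137 CPM in injured libraries (log2 change 1.87 ± 0.10, adjusted p = 0.000339). Aqp6, a channel of intracellular vesicles, rose by 2.34 ± 0.34. Foxi1, the transcription factor that specifies these cells, went from 11.9, 5.62 and 3.71 to 29.8, 19.3 and 31.6 CPM (log2 change 1.93 ± 0.39, adjusted p = 0.0249), lost without sham library 2 or injured library 1 or 3.

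Among 25 genes shared by the distal segments, 19 rose and 1 fell, with a median log2 change of 1.27. Cdh1, the epithelial cadherin, was read at 65.3, 67.5 and 55.2 CPM in sham and 149.6, 149 and 155 CPM in injured libraries (log2 change 1.27 ± 0.09, adjusted p = 0.000579). Epcam, an epithelial adhesion protein, went from 24.4, 24.6 and 22.6 to 73, 95.9 and 64.8 CPM (log2 change 1.71 ± 0.14, adjusted p = 0.000915). Both had all injured libraries well above all sham libraries. Keratin 7 (Krt7) rose by 1.69 ± 0.10, the claudin gene Cldn8 by 1.26 ± 0.13, the chloride channel subunit gene Bsnd by 1.22 ± 0.10, the secreted protein gene Wfdc2 by 1.37 ± 0.13, the potassium channel gene Kcnj10 by 1.16 ± 0.12 and the transcription factor gene Sim1 by 1.40 ± 0.14. All 8 passed in every fit that left out 1 library. Prom1 was the member that fell, at 193, 149 and 173 CPM in sham and 117, 119 and 109 CPM in injured libraries (log2 change -0.58 ± 0.10, adjusted p = 0.0143), and lost its call without injured library 1. Prom1 is a membrane protein of progenitor-like tubule cells as well. In the short list of thin limb genes 2 of 8 rose and 1 fell. The one that fell was the claudin gene Cldn10 (log2 change -0.37 ± 0.09, adjusted p = 0.0472), lost in every fit that left out 1 library except that without sham library 1.

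Summed over each list, thick ascending limb transcripts made up 547, 776 and 755 TPM in sham and 2841, 3094 and 2222 TPM in injured libraries. Principal cell transcripts went from 153, 162 and 107 TPM to 626, 525 and 440 TPM, and intercalated cell transcripts from 197, 185 and 155 TPM to 518, 420 and 455 TPM. Proximal tubule transcripts made up 13734, 14456 and 11554 TPM in sham and 12399, 10734 and 10726 TPM in injured libraries. The lists are short, so these sums are small shares of a library. Within the distal convoluted tubule list 1 gene, Fxyd2, a subunit of the sodium pump that other segments transcribe too, stood at 10482 ± 864 TPM in sham and 9949 ± 1027 TPM in injured libraries, and the sums of that list overlapped between the groups. A distal score per library (mean log2 CPM of the 5 distal lists, minus its mean over 12 tubule libraries) ran from -0.81 to -0.41 in sham and from 0.86 to 0.92 in injured females. In females, group and score therefore cannot be told apart. In a 12-library fit that also held this score, no gene passed for the female comparison (edgeR, 873 genes at an unadjusted p under 0.05), and 34 of the 61 distal rises, 495 of all 805 rises and 286 of all 362 falls kept their sign. The score is built from the same distal genes, so their smaller changes in that fit were fixed in advance. Its spread within a group was widest in sham males (-0.99 to 0.46), so the female values there lean on male libraries. Such counts therefore cannot say which segment a rise came from.

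**Figure D3:**
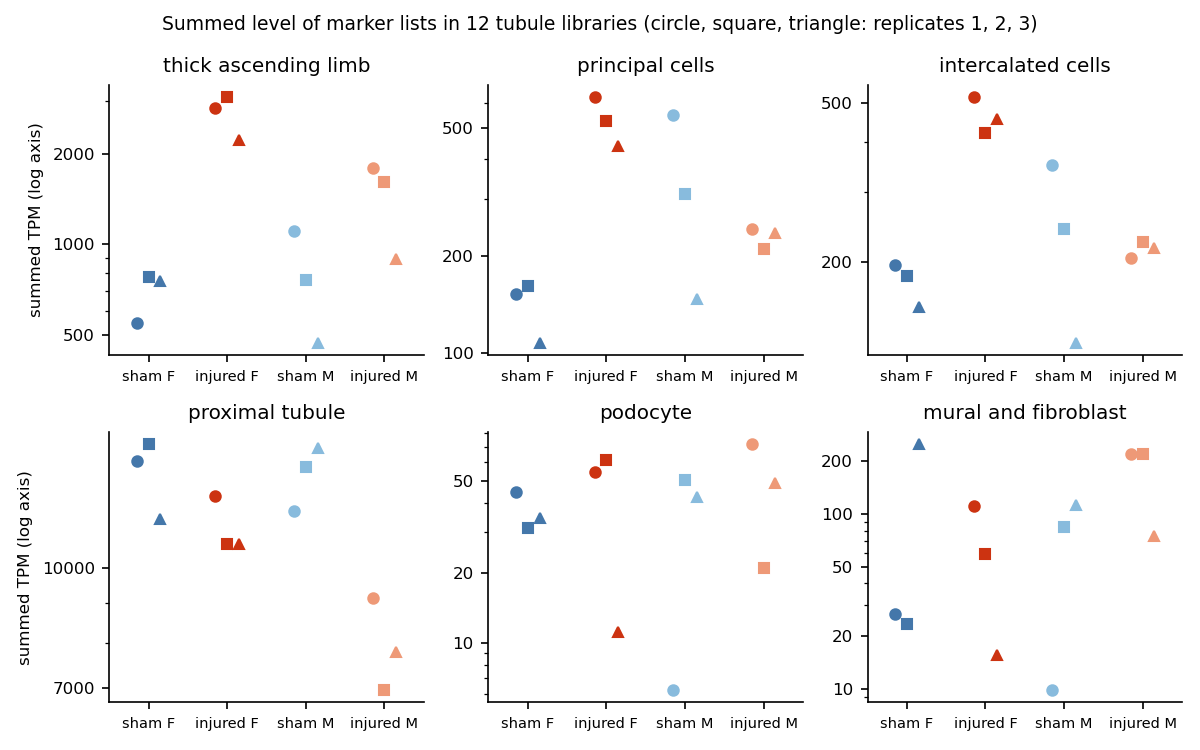
Summed TPM of 6 marker lists in the 12 tubule libraries on log axes, by sex and treatment, with circles, squares and triangles for replicates 1, 2 and 3. In females the 3 distal lists of the upper panels lie higher in every injured library than in every sham library, and 1 injured library stands low for podocyte transcripts at 11.1 TPM and 1 sham library high for mural transcripts at 251 TPM.

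Markers of cells outside the tubule passed in few cases. None of 10 podocyte, 15 endothelial, 4 lymphocyte or 5 red cell genes passed in edgeR's test (1, 3, 0 and 0 of them at an unadjusted p under 0.05), DESeq2 called 1 endothelial gene and limma voom none. In edgeR's test 1 of 12 mural and fibroblast genes rose (Col1a1), 1 of 14 macrophage genes rose (Cd14) and 1 of 7 neutrophil genes fell (Hdc). DESeq2 called 4 of the mural and fibroblast genes and limma voom none. Median log2 changes were 0.22 for podocyte, 0.59 for endothelial, 0.39 for lymphocyte and 1.09 for red cell genes. They were 1.22 for mural and fibroblast, 0.59 for macrophage and 0.89 for neutrophil genes. All 15 endothelial genes had a log2 change above 0. Endothelial transcripts summed to 74.8, 69.4 and 117 TPM in sham and 120, 160 and 64.5 TPM in injured libraries, and red cell transcripts to 81.0, 53.9 and 93.1 TPM against 240, 374 and 13.2 TPM. Injured libraries 1 and 2 thus lay above sham and injured library 3 below it. Without injured library 3, 5 of the mural and fibroblast genes rose. Cd14, the endotoxin co-receptor, which tubule cells can express too, was read at 2.38, 5.87 and 4.56 CPM in sham and 13.2, 18.8 and 9.79 CPM in injured libraries (log2 change 1.70 ± 0.35, adjusted p = 0.0265), a call lost without sham library 3 or injured library 1 or 2. Hdc is described with the males below.

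Genes that mark injury of the tubule cell and are not markers of distal segments rose in part. Of 25 tested, 10 rose and none fell, with a median log2 change of 1.09. The 10 became 8 without sham library 1 and injured library 3, and ranged from 3 (without sham library 2) to 13 (without injured library 3) when single libraries were left out. Havcr1 (chromosome 11, 46735080 to 46779578), which encodes Kim-1, the phosphatidylserine receptor by which injured proximal cells take up dying neighbours, was read at 1.8, 2.51 and 1.28 CPM in sham and 7.86, 27.2 and 7.74 CPM in injured libraries. All injured libraries lay above all sham libraries, and injured library 2 was more than 3 times as high as the other injured ones. Its 7.6-fold rise (log2 change 2.93 ± 0.54, adjusted p = 0.018) lost its call without sham library 1, 2 or 3. Rrad, a small GTPase, was read at 3.15, 3.55 and 3.76 CPM in sham and 18.8, 26.1 and 15 CPM in injured libraries (log2 change 2.51 ± 0.22, adjusted p = 0.0010) and passed in all 6 fits that left out 1 library. Sox9, a transcription factor of tubule repair, was low throughout, at 1.06, 0.887 and 0.713 CPM in sham and 3.69, 4.54 and 2.85 CPM in injured libraries (log2 change 2.05 ± 0.35, adjusted p = 0.0129), lost without injured library 1 or 2. The 3 chains of fibrinogen, a clotting protein that injured tubules can make, all rose. Fgg went from 10.9, 11.8 and 18.8 to 46.1, 42.5 and 49.9 CPM (log2 change 1.74 ± 0.20, adjusted p = 0.00273), while Fga rose by 1.25 ± 0.21 and Fgb by 0.86 ± 0.20 on the log2 scale. Fgg passed in all 6 fits that left out 1 library, Fga was lost without sham library 2 or injured library 1, and Fgb in all 6. Gdf15, a stress-induced secreted factor, went from 7.43, 9.76 and 16.2 to 27.4, 25.9 and 29.6 CPM (log2 change 1.31 ± 0.25, adjusted p = 0.0205), lost without sham library 2 or any injured library. The list shares Egr1, Cyr61 and Atf3 with the early response genes described below. In the 12-library fit with the distal score 4 of the 10 kept a log2 change above 0, beside 495 of all 805 rises, a count with the limit given above.

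Other hallmarks of proximal injury did not pass in the fit of 6 libraries. Krt20, a keratin of damaged tubules, was read at 0.0644, 0.37 and 0 CPM in sham and 0.996, 0.848 and 0.401 CPM in injured libraries (log2 change 2.31 ± 1.12, adjusted p = 0.287). Cdkn1a, the cell cycle inhibitor p21, had overlapping groups, at 7.43, 5.42 and 10.04 CPM in sham and 8.75, 12.5 and 5.46 CPM in injured libraries (log2 change 0.23 ± 0.33, adjusted p = 0.763). Vcam1, an adhesion molecule of failed repair, was read at 1.99, 1.6 and 2.85 CPM in sham and 5.85, 6.8 and 1.56 CPM in injured libraries (log2 change 1.14 ± 0.52, adjusted p = 0.256). For Vcam1, injured libraries 1 and 2 stood above all sham libraries while injured library 3 was below them all. Without injured library 3 Vcam1 passed (log2 change 1.56, adjusted p = 0.0401), and the authors' deposited table gives it a log2 change of 1.28 ± 0.52, adjusted p = 0.0261. Hmox1, heme oxygenase 1, went from 13.3, 11 and 16.6 to 21.5, 22.5 and 15.5 CPM (log2 change 0.54 ± 0.19, adjusted p = 0.15). Plin2, which coats lipid droplets, was read at 72.7, 107 and 89.6 CPM in sham and 115, 106 and 92 CPM in injured libraries (log2 change 0.22 ± 0.14, adjusted p = 0.445). The adjusted p of these 5 genes does not show that they were unaltered.

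Of 24 injury genes that distal segments also transcribe 13 rose and none fell, with a median log2 change of 1.41. These genes moved beside the distal lists described above, and how much of their rise belongs to either source was not tested. Lcn2 (chromosome 2, 32384633 to 32388252), an iron-siderophore binding protein used as a urine marker of injury, was read at 0.161, 0.345 and 0.342 CPM in sham and 2.69, 3.62 and 18.6 CPM in injured libraries. Injured library 3 stood far above the other injured libraries, which still exceeded every sham library (log2 change 4.84 ± 0.84, adjusted p = 0.0143), and the call was lost without sham library 1 or 2. Clu, the secreted chaperone clusterin, also peaked in injured library 3, at 96.1, 109 and 57.8 CPM in sham and 285, 209.5 and 618 CPM in injured libraries (log2 change 2.08 ± 0.40, adjusted p = 0.0205), and was lost without any of the sham libraries or injured library 1. C3, the central complement protein, went from 5.53, 24.1 and 19.8 to 122, 104 and 92.2 CPM (log2 change 2.68 ± 0.44, adjusted p = 0.0116), lost without injured library 1. Spp1 (chromosome 5, 104435118 to 104441050), osteopontin, rose 1.46-fold, from 1336, 1419 and 1136 to 1892, 1953 and 1846 CPM (log2 change 0.55 ± 0.10, adjusted p = 0.0165). That call was lost without sham library 1 or injured library 1 or 2. A further 7 members passed in every fit that left out 1 library, among them Lgals3, a galactoside-binding lectin, at 7.95, 8.21 and 4.53 CPM in sham and 35.5, 40.3 and 33.9 CPM in injured libraries (log2 change 2.41 ± 0.22, adjusted p = 0.00108). Cd24a, a surface protein of immature epithelium, went from 36.4, 42.1 and 43.9 to 152, 205 and 122 CPM (log2 change 1.97 ± 0.18, adjusted p = 0.0012). Keratin 18 (Krt18) rose by 2.09 ± 0.17, the annexin gene Anxa5 by 1.11 ± 0.09, the transcription factor gene Sox4 by 1.35 ± 0.17 and the calcium-binding protein gene S100a11 by 1.42 ± 0.19 on the log2 scale. Krt8, the partner of keratin 18, did not pass (log2 change 0.36 ± 0.11, adjusted p = 0.0959). With the distal score in the 12-library fit 5 of the 13 stayed above 0, beside 495 of all 805 rises, which does not settle the source of their rise.

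Early response genes, which cells transcribe within minutes of a stimulus, rose in part. Of 25 tested, 13 rose and none fell, with a median log2 change of 1.09. Btg2 and Zfp36 passed in every fit that left out 1 library, whereas the group as a whole counted 2 without sham library 2, 3 without injured library 1 and 17 without injured library 3. Injured library 3 had the lowest injured value for each early response gene named here except Cyr61. Atf3 (chromosome 1, 191170296 to 191218039), a stress-induced repressor, was read at 19.4, 27.7 and 51 CPM in sham and 172, 267 and 101 CPM in injured libraries (log2 change 2.46 ± 0.42, adjusted p = 0.0141). Sham library 3 was the highest sham library and stood below all injured ones, and the call was lost without sham library 2 or injured library 1. Fos (chromosome 12, 85473890 to 85477273), a subunit of the AP-1 transcription factor, was read at 451, 599 and 769 CPM in sham and 1347, 1520.4 and 992 CPM in injured libraries (log2 change 1.09 ± 0.21, adjusted p = 0.0216), and its partner Jun at 409.9, 526 and 636 CPM in sham and 959, 1065 and 730.4 CPM in injured libraries (log2 change 0.81 ± 0.18, adjusted p = 0.0366). Both were lost without sham library 1 or 2 or injured library 1 or 2. Junb went from 139.9, 179.5 and 253 to 514, 690.4 and 419.5 CPM (log2 change 1.5 ± 0.24, adjusted p = 0.0107) and was lost without sham library 2. Egr1, a zinc finger factor, went from 123, 189.5 and 211 to 517, 588 and 327 CPM (log2 change 1.45 ± 0.25, adjusted p = 0.0141), lost without sham library 2 or injured library 1. Zfp36, which speeds the decay of cytokine messages, went from 148, 172 and 182 to 541, 667 and 304 CPM (log2 change 1.59 ± 0.25, adjusted p = 0.0102). Btg2, an antiproliferative gene, went from 96, 108 and 126 to 324, 403 and 225 CPM (log2 change 1.53 ± 0.20, adjusted p = 0.00448). The matricellular protein gene Cyr61 rose by 0.87 ± 0.15, the zinc finger gene Egr2 by 2.64 ± 0.55, the small Maf factor gene Maff by 1.97 ± 0.40 and the phosphatase gene Dusp5 by 2.47 ± 0.54 on the log2 scale. In the 12-library fit with the distal score, none of the 13 kept a log2 change above 0, beside 495 of all 805 rises. That fit cannot tell group from score in females, so this count does not place the rise in a segment.

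Early response promoters are known to carry binding sites for CREB and for serum response factor, so the RefSeq promoter sequences (GRCm38.p6, 250 bases before the start) of this list were searched on both strands. The letters TGACGT, the core of the cAMP response element, occur in 2125 of all 32851 promoters, 6.47%, and in those of 1971 of 27025 genes, 7.29%. Of 26 genes on the list 20 have a promoter sequence and 7 hold these letters; of the 12 that rose and have one, 6 do, namely Fos, Egr2, Atf3, Maff, Btg2 and Dusp5. One spelling of the serum response element (CCATAT, any base, AGG) occurs in 55 promoters, 0.167%, and on this list only in that of Dusp5. Other spellings and bases further upstream were not searched, so a gene without a match here may still carry such an element. The motifs were chosen with the values known, and a match describes letters, not binding. The same letters also occur in the promoter of Aqp2, which is not on this list, at base -212. Promoters of 4 of these 6 genes are shown, with log2 changes from 1.09 (Fos) to 2.47 (Dusp5), while Egr2, not shown, rose by 2.64. They run 5′ to 3′ on the strand of the gene, with the matched letters in capitals (TGACGT or, from the other strand, ACGTCA, and in Dusp5 also the serum response element). The Fos promoter is chr12:85473640-85473889 on the plus strand, with the motif starting at base -66 from the start, and that of Dusp5 is chr19:53528895-53529144 on the plus strand, with motifs at -72 and -56. The Atf3 promoter is chr1:191183334-191183583 on the minus strand, with the motif at -8, and that of Btg2 is chr1:134079156-134079405 on the minus strand, with overlapping matches of both strands at -166 and -164.
Fos: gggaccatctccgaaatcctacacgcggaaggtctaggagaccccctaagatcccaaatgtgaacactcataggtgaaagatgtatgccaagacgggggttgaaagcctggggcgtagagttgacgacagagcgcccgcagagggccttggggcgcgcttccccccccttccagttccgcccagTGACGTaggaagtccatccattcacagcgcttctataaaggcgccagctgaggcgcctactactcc
Atf3: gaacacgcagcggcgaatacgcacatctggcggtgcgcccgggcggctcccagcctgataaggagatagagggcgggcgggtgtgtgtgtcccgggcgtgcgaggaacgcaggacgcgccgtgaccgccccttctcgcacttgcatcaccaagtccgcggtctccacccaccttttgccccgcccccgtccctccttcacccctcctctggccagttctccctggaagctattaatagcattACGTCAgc
Btg2: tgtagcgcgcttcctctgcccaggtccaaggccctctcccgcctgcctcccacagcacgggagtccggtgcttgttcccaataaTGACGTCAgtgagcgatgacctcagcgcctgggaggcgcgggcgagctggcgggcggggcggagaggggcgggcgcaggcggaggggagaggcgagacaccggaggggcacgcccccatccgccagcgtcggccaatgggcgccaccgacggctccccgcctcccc
Dusp5: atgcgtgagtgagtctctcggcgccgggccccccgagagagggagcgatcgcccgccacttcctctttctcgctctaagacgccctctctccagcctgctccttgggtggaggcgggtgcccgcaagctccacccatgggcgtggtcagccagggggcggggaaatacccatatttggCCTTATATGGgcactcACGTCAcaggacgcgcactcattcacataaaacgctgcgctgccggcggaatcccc

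Cytokine signalling genes rose in part, set beside 4.76% of all genes that rose. Of 13 genes of the interleukin 6 and STAT3 pathway 4 rose and none fell. Socs3 (chromosome 11, 117966079 to 117970047), the feedback inhibitor of that pathway, was read at 17.7, 27.3 and 32.2 CPM in sham and 216, 282 and 128 CPM in injured libraries, with the groups far apart and a 8.1-fold rise (log2 change 3.02 ± 0.32, adjusted p = 0.00188). Stat3 itself went from 45, 50.2 and 45.7 to 79.7, 64 and 64.3 CPM (log2 change 0.56 ± 0.11, adjusted p = 0.0189), lost without sham library 1 or 3 or injured library 1. The kinase gene Pim1 rose by 1.59 ± 0.27 and was lost without sham library 2 or injured library 1 or 2. Of 23 chemokine and NF-kappaB genes 2 rose, Il34 (log2 change 1.55 ± 0.33, adjusted p = 0.0283), a macrophage growth factor, and Nfkbiz (log2 change 1.54 ± 0.36, adjusted p = 0.0406), a nuclear regulator of that pathway. All 23 had a log2 change above 0, and DESeq2 called 7 of them as rises. Il34 was lost without sham library 2 or any injured library, and Nfkbiz without sham library 1 or 2 or injured library 1 or 2. Cxcl1, a neutrophil attractant, went from 2.38, 7.67 and 13.3 to 40.4, 54.1 and 17.2 CPM without passing (log2 change 2.25 ± 0.59, adjusted p = 0.0593), and 6 of the 23 rose without injured library 3. Irf1 was the single interferon gene of 22 that rose, at 1.64, 3.25 and 3.88 CPM in sham and 23.8, 28.9 and 8.25 CPM in injured libraries (log2 change 2.79 ± 0.49, adjusted p = 0.0143), lost without sham library 2 or injured library 1. In edgeR's test that share, 1 of 22, is near the share of all genes that rose, and DESeq2 gave 4 rises.

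Chaperones, DNA damage genes and metal-binding genes changed in single members. Of 14 heat shock genes 3 rose. The inducible Hsp70 genes Hspa1b and Hspa1a were read at 35.5, 24 and 34.2 CPM in sham and 113, 171 and 88.7 CPM in injured libraries and at 26.4, 20.8 and 31.4 CPM in sham and 83.3, 139 and 56.8 CPM in injured libraries. Their coding sequences are nearly identical, so the split of reads between them is uncertain, and both stood apart from sham (log2 change 1.99 ± 0.25, adjusted p = 0.00371, and log2 change 1.83 ± 0.31, adjusted p = 0.0128). Hspa1a was lost without sham library 2. The co-chaperone gene Dnajb1 rose by 0.80 ± 0.16, lost without sham library 1 or 2 or injured library 1 or 2. Among 20 p53 targets 4 rose. Gadd45a and Gadd45b, stress sensors that stall the cell cycle, went from 15.2, 21.8 and 17.3 to 68.1, 79.1 and 48.2 CPM (log2 change 1.85 ± 0.20, adjusted p = 0.00222) and from 6.05, 4.59 and 4.59 to 34, 48.7 and 21.2 CPM (log2 change 2.77 ± 0.29, adjusted p = 0.00201), and both passed in all 6 fits that left out 1 library. The metallothionein genes Mt1 and Mt2, which buffer zinc, went from 59.4, 58.5 and 59.8 to 113, 141 and 101 CPM (log2 change 1.00 ± 0.12, adjusted p = 0.00327) and from 18.9, 17.6 and 17 to 48.4, 56.7 and 38.5 CPM (log2 change 1.43 ± 0.14, adjusted p = 0.00165). The sham replicates of both lay close together, and both passed in all 6 of these fits. The ferritin heavy chain gene Fth1 rose by 0.46 ± 0.09 while the light chain gene Ftl1 fell (log2 change -0.52 ± 0.11, adjusted p = 0.0247). Fth1 was lost without sham library 1 or 2 and Ftl1 without sham library 2 or 3, and both without injured library 1 or 2. Genes under NRF2, the sensor of oxidants, split: 2 of 22 rose and 3 fell, with a median log2 change of 0.07. Mgst1, a membrane glutathione transferase, went from 27, 28.7 and 30.02 to 77.1, 68.9 and 95.4 CPM (log2 change 1.49 ± 0.12, adjusted p = 0.000915), and Osgin1 rose by 0.64 ± 0.12, lost without sham library 1 or 2 or injured library 1 or 2. The glutathione transferase genes Gsta2 and Gsta1, which share sequence, fell (log2 change -0.80 ± 0.17, adjusted p = 0.0297, and log2 change -0.65 ± 0.15, adjusted p = 0.0393), as did malic enzyme 1, Me1 (log2 change -0.37 ± 0.09, adjusted p = 0.0418). No fall of this list passed without sham library 1 or 2 or injured library 1 or 2 (edgeR's test), 1 did without sham library 3 and 2 without injured library 3.

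A minority of proximal tubule genes passed, all of them as falls. Of 30 tested markers 7 fell and none rose, with a median log2 change of -0.31, against 2.14% of all genes that fell. The 7 became 4 without sham library 1 and injured library 3, and 2 to 8 when single libraries were left out, with 2 without injured library 1 or 2 and 3 without sham library 2. Slc22a8, the organic anion carrier OAT3 that secretes drugs into urine, was read at 899, 829.6 and 647 CPM in sham and 445, 407 and 437 CPM in injured libraries. Every injured library lay below every sham library (log2 change -0.88 ± 0.12, adjusted p = 0.00569), in each fit that left out 1 library. Dab2, the adaptor of megalin endocytosis, went from 694, 712 and 632 to 478, 429.7 and 480.3 CPM (log2 change -0.55 ± 0.08, adjusted p = 0.00822), also in each of these fits. Ass1, which makes argininosuccinate for arginine synthesis, went from 2854, 2816 and 2239.9 to 1738, 1629 and 1696 CPM (log2 change -0.64 ± 0.11, adjusted p = 0.0134). The creatine pathway enzyme gene Gatm fell by -0.58, the gluconeogenic Fbp1 by -0.55, the water channel gene Aqp1 by -0.42 and the inositol oxygenase gene Miox by -0.63 on the log2 scale. Ass1 and Fbp1 were lost without sham library 2 or injured library 1 or 2, Gatm without injured library 1 or 2, Aqp1 without sham library 1 or 2 or injured library 1 or 2, and Miox without any library but sham 3. Of the 7, 6 stayed below 0 when the 12-library fit held the distal score, beside 286 of all 362 falls, a count with the limit given above.

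The receptors of protein uptake and the phosphate carrier did not pass. Lrp2 (chromosome 2, 69424340 to 69586065), megalin, was read at 3151, 2715 and 2667 CPM in sham and 2303, 2013 and 2903 CPM in injured libraries (log2 change -0.24 ± 0.14, adjusted p = 0.384), with injured library 3 above sham libraries 2 and 3. Cubn, its partner cubilin, was read at 925, 925 and 697 CPM in sham and 725, 599 and 754 CPM in injured libraries (log2 change -0.29 ± 0.13, adjusted p = 0.261). Slc34a1 (chromosome 13, 55398187 to 55415592), the main sodium phosphate carrier, was read at 6532, 5360.1 and 4652 CPM in sham and 4471, 3968 and 4802 CPM in injured libraries (log2 change -0.32 ± 0.14, adjusted p = 0.233). All 3 overlapped between groups. Among 10 genes of the first (S1) segment of the proximal tubule 1 fell and none rose, and among 13 of the third (S3) segment 1 rose. That gene was Slc5a1, the glucose carrier SGLT1, at 58.9, 77.9 and 70.4 CPM in sham and 105, 100.02 and 96.1 CPM in injured libraries (log2 change 0.54 ± 0.11, adjusted p = 0.0217), lost without sham library 3 or injured library 1 or 2.

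Genes of proximal metabolism changed in a few members each. Of 14 genes of tryptophan breakdown and NAD synthesis 5 fell and none rose, with a median log2 change of -0.35, and 1 to 5 fell when single libraries were left out. Kmo, kynurenine monooxygenase, was read at 238, 239 and 246 CPM in sham and 174, 154 and 175 CPM in injured libraries and passed in all 6 of these fits (log2 change -0.52 ± 0.07, adjusted p = 0.00675). Afmid fell by -0.59, Kynu by -0.62, Haao by -0.44 and Aspdh by -0.45 on the log2 scale, each lost in at least 4 of the 6 fits except Afmid, lost in 3. Of 21 organic ion carriers 3 fell, Slc22a8 above, the proton-cation antiporter Slc47a1 (log2 change -0.47 ± 0.09, adjusted p = 0.0161) and the efflux pump Abcg2 (log2 change -0.37 ± 0.08, adjusted p = 0.0384). In 2 lists the share that fell was near the 2.14% of all genes: 1 of 30 fatty acid oxidation genes, Hadh (log2 change -0.41 ± 0.09, adjusted p = 0.0323), with a median of -0.08, and 1 of 27 genes of the citric acid cycle and respiratory chain, Sucla2 (log2 change -0.31 ± 0.07, adjusted p = 0.0379). At an unadjusted p under 0.05 there were 9 and 8 genes of these lists, and DESeq2 called 8 and 4. Of 13 genes of gluconeogenesis and glucose transport 2 fell, Fbp1 and the ketohexokinase gene Khk (log2 change -0.42 ± 0.10, adjusted p = 0.0453), and 2 rose, the glucose carrier genes Slc5a1 (above) and Slc2a1 (below). Slc47a1 was lost without sham library 1 or 2, Hadh without sham library 2 or 3, Sucla2 and Khk without any sham library, these 4 without injured library 1 or 2, and Abcg2 without any library but injured 3. Among 18 amino acid carriers 2 rose and 1 fell. The rises were Slc38a2, an importer of neutral amino acids induced by starvation, from 18.4, 20.1 and 18.6 to 44.4, 49 and 42.6 CPM (log2 change 1.25 ± 0.10, adjusted p = 0.000678), and Slc7a5, the large neutral amino acid exchanger, from 1.8, 1.85 and 1.8 to 9.28, 9.3 and 6.2 CPM (log2 change 2.18 ± 0.24, adjusted p = 0.00235). The cystine carrier subunit gene Slc3a1 had a log2 change of -0.29, a call lost in all 6 fits that left out 1 library. The sham replicates of Slc7a5 were almost equal and every injured library was more than 3 times as high.

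Glycolysis is little used by the proximal tubule and more by distal segments. Of 21 tested genes of a list that joins glycolysis with targets of hypoxia 7 rose and none fell, with a median log2 change of 0.30. Hk1, the first enzyme of glycolysis, was read at 46.1, 44.2 and 37.3 CPM in sham and 125, 135 and 133 CPM in injured libraries (log2 change 1.62 ± 0.09, adjusted p = 0.000339). Pkm, the last enzyme, went from 120.4, 134 and 111 to 237, 263 and 272 CPM (log2 change 1.08 ± 0.09, adjusted p = 0.000939). Slc2a1, the glucose importer GLUT1, rose by 1.31 ± 0.13 and Pfkp, a phosphofructokinase gene, by 0.94 ± 0.10 on the log2 scale. All 4 had no overlap and passed in every fit that left out 1 library. With the distal score in the 12-library fit 3 of the 7 kept a log2 change above 0, beside 495 of all 805 rises, which does not place the rise in a segment.

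Some matrix, growth and regulatory genes passed as well. Of 26 matrix genes 11 rose and 1 fell, with a median log2 change of 1.22, a count that ran from 2 without sham library 2 to 16 without injured library 3. Col18a1, a basement membrane collagen, went from 121, 101 and 96.4 to 204, 173 and 201 CPM (log2 change 0.85 ± 0.11, adjusted p = 0.00407). Col1a1, the fibroblast collagen, was read at 0.354, 1.08 and 0.627 CPM in sham and 6.93, 8.59 and 1.23 CPM in injured libraries, with injured library 3 close to sham library 2 (log2 change 3.00 ± 0.72, adjusted p = 0.0458), and lost its call in every fit that left out 1 library except that without injured library 3. Of 26 cell cycle genes 6 rose and none fell, and none rose when transcript lengths were corrected for. The replication licensing genes Mcm5 and Mcm2 went from 3.93, 3.48 and 4.05 to 12.1, 10.3 and 7.83 CPM (log2 change 1.40 ± 0.21, adjusted p = 0.00797) and from 9.91, 10.7 and 9.01 to 17.9, 14.6 and 16.3 CPM (log2 change 0.72 ± 0.14, adjusted p = 0.0195), both lost without injured library 1. Cdk1, the mitotic kinase, was read at 0.0322, 0 and 0 CPM in sham and 1.21, 1.03 and 0.87 CPM in injured libraries, with a single read in sham, so no fold is given, and its call was lost without injured library 1 or 2. Without injured library 1 none of the 26 passed in edgeR's test. Among 24 transcription factors of the nephron 9 rose, Esrrb by 1.08 ± 0.15 among them, and 1 fell, Maf, at 538, 472 and 537 CPM in sham and 382, 393 and 406 CPM in injured libraries (log2 change -0.39 ± 0.08, adjusted p = 0.0256), lost without sham library 1 or 3 or injured library 1 or 2.

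The largest changes among protein-coding genes with at least 5 CPM and no overlap included several already described, namely Lcn2, Stc1, Aqp2, Socs3, Col1a1, Havcr1 and Irf1. The others that rose were Slc26a7, Arc and Fam171a2. Slc26a7, an anion exchanger of acid-secreting intercalated cells and the thick limb, was read at 0.225, 0.74 and 0.20 CPM in sham and 3.54, 5.13 and 6.42 CPM in injured libraries (log2 change 3.66 ± 0.55, adjusted p = 0.00826). Arc, an early response gene known from neurons, went from 1.45, 1.43 and 3.08 to 12.4, 28.6 and 10.3 CPM (log2 change 3.11 ± 0.47, adjusted p = 0.00842). Slc26a7 and Arc passed in each fit that left out 1 library, and Fam171a2 (log2 change 2.80 ± 0.50, adjusted p = 0.015) was lost without injured library 1 or 2. Gvin1, an interferon-inducible GTPase gene, had no read in any sham library and 2.73, 5.34 and 3.66 CPM in the injured ones, at least 139-fold higher at a floor of 3 counts over the sham group (the floor covers counting error only). Male tubules held 1712 reads of Gvin1 over the sham and 1950 over the injured libraries, so among the tubule groups only the sham females lacked it. The reason was not tested. Near-copies of Gvin1 make its own count uncertain. In the sham libraries 28 tested genes had no read, 24 of them among the rises.

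The largest falls by the same rule reached -1.47 on the log2 scale, for Hdc. Hao2, a peroxisomal hydroxyacid oxidase, was read at 1985, 2136 and 1982 CPM in sham and 1013, 1060.5 and 922 CPM in injured libraries. Its groups were tight and well apart (log2 change -1.03 ± 0.09, adjusted p = 0.000915), and the authors' deposited table gives it a log2 change of -0.73 ± 0.41, adjusted p = 0.0727. Bhmt, which remethylates homocysteine, went from 110.05, 92 and 98.7 to 51, 39.4 and 57.5 CPM (log2 change -1.02 ± 0.14, adjusted p = 0.00518). Fabp7, a fatty acid binding protein, went from 13.9, 12.3 and 18.6 to 6.21, 6.05 and 6.0 CPM (log2 change -1.29 ± 0.18, adjusted p = 0.00569), and Tstd1, a sulfur transferase, from 18.5, 17 and 13.5 to 7.93, 8.38 and 7.0 CPM (log2 change -1.07 ± 0.16, adjusted p = 0.00749). Hao2, Bhmt, Fabp7 and Tstd1 passed in all 6 fits that left out 1 library, as did the carboxylesterase gene Ces1e (log2 change -1.05 ± 0.15, adjusted p = 0.00681), one of a cluster of close copies. Nap1l5 (log2 change -1.39 ± 0.28, adjusted p = 0.0229), the class II antigen presentation gene H2-Aa (log2 change -1.15 ± 0.26, adjusted p = 0.0394), Spns3 (log2 change -0.96 ± 0.21, adjusted p = 0.0333) and Serpina3b (log2 change -0.94 ± 0.20, adjusted p = 0.0297), which also has close copies, fell too, but each passed in only 1 of the 6 fits that left out 1 library. Nap1l5 passed only without sham library 2, H2-Aa and Spns3 only without sham library 1, and Serpina3b only without sham library 3.

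Whether females and males responded differently was tested in the fit of 12 tubule libraries, as the difference of the responses. Of 18369 genes tested 157 differed, 0.855%, with the female response higher for 87 and lower for 70. This count depended on single libraries: it was 5892, 30.5% of genes, without injured male library 3, which stood far from the other injured males, 223 without sham male library 3, and 19 to 55 without any of the other 10. Without sham female library 1 and injured female library 3 it was 2. In males 1939 genes rose and 1549 fell, 10.6% and 8.43% of genes tested, against 2 that passed in females in the same fit. With injured male library 3 left out of the shared fit, 501 genes passed in females. Distal markers were 10 up and 11 down in males, with a median log2 change of -0.14, and 5 of 92 differed between the sexes, 44 without injured male library 3. Proximal markers had a median of -0.83 in males and tubular injury genes one of 2.14.

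**Figure D4:**
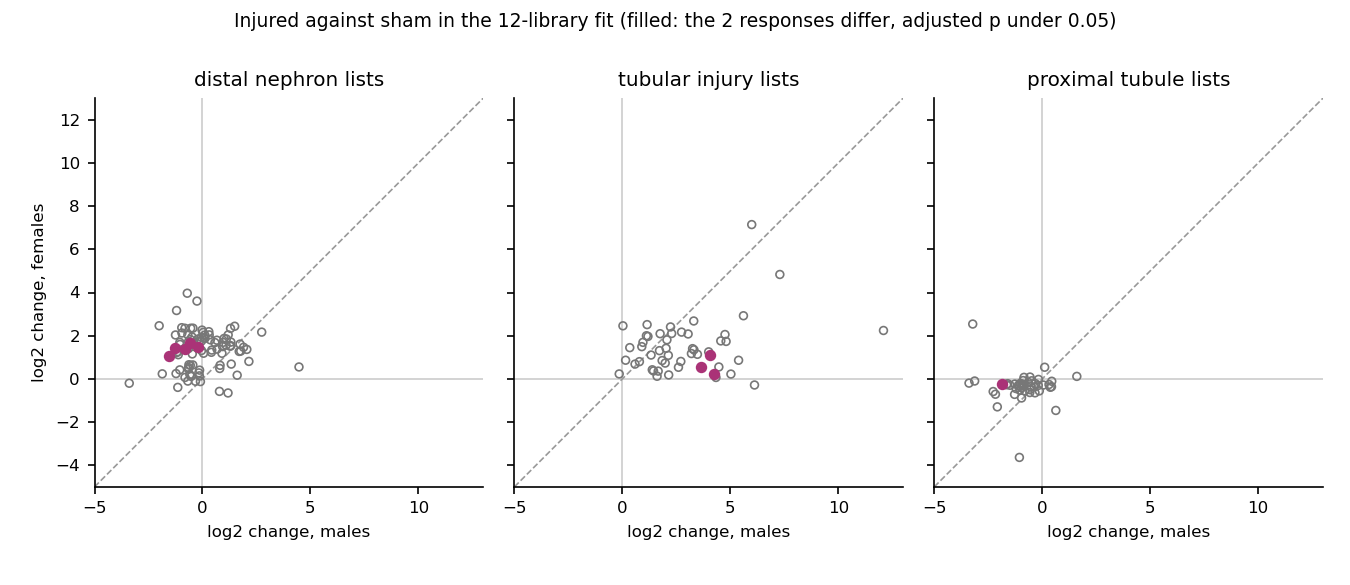
Log2 change after injury in females (vertical axis) against males (horizontal axis) from the fit of 12 tubule libraries, for distal nephron, tubular injury and proximal tubule genes. Filled points are genes whose responses differ at an adjusted p under 0.05, and the dashed line marks equal responses. Most distal genes lie above the line and most tubular injury genes below it.

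The 5 distal genes were Casr, Mecom, Kcnj1, Aqp3 and Sim1, each with a rise in females and a log2 change in males between -1.54 and -0.20. Casr was read at 16.2, 18.5 and 18.7 CPM in sham females and 54.8, 56.3 and 59.5 CPM in injured females, against 25.1, 15.6 and 16.2 CPM in sham males and 12.5, 11.8 and 13.7 CPM in injured males. The responses differed by 2.26 ± 0.26 on the log2 scale (adjusted p = 0.00341). Mecom was read at 51.5, 51.7 and 45.4 CPM in injured females, and at 18.7, 20.4 and 19.4 CPM in injured males, which overlapped sham males at 29.6, 19.1 and 18.5 CPM (difference 1.66 ± 0.25, adjusted p = 0.0192). Kcnj1 fell in males, from 127, 77.8 and 102 to 24.1, 22.3 and 59.1 CPM (difference 2.61 ± 0.46, adjusted p = 0.0331), and so did Aqp3, from 172, 98.6 and 64.3 to 43.7, 45.8 and 51.3 CPM (difference 2.68 ± 0.44, adjusted p = 0.0264).

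A few injury genes differed between the sexes. The difference passed for 1 of 25 tubular injury genes, Plin2, and for 2 of 24 that distal segments also transcribe, Spp1 and Anxa3, beside 0.855% of all genes. Without injured male library 3 it passed for 10 and 6 of them, beside 30.5% of all genes. Anxa3, an annexin gene, had a smaller response in females (-2.97 ± 0.52, adjusted p = 0.0321). Spp1 started from 1284, 1364 and 1095 CPM in sham females and only 311, 177 and 218 CPM in sham males, and reached 1817, 1877 and 1776 CPM in injured females and 2278, 2762 and 3639 CPM in injured males. The female response was thus smaller by -3.08 ± 0.31 on the log2 scale (adjusted p = 0.00328). Plin2 rose in males from 98.7, 93.6 and 84.1 to 2471, 2341 and 384 CPM, with injured male library 3 far below the other injured males, and its female response was lower (-4.02 ± 0.70, adjusted p = 0.0331). Krt20 was read at 541, 568 and 11.6 CPM in injured males, where library 3 again stood low, and its difference did not pass (adjusted p = 0.103). Havcr1 reached 31.5, 277 and 304 CPM in injured males against 7.55, 26.1 and 7.44 CPM in injured females, a difference of responses that did not pass either (-2.68 ± 1.02, adjusted p = 0.182). Lrp2 fell in males from 2941, 3208 and 4051 to 913, 681 and 1225 CPM, and the smaller change in females differed from it (1.61 ± 0.31, adjusted p = 0.0381).

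The largest differences among genes of at least 5 CPM included genes whose sham levels were far apart between the sexes. Hdc, which makes histamine, was read at 70.9, 128 and 81.2 CPM in sham females and 25.5, 46.8 and 28.8 CPM in injured females, and at 1.07, 1.4 and 0.758 CPM in sham males and 20.5, 14.5 and 1.34 CPM in injured males. It fell in females, a call lost without sham library 2 or injured library 1 or 3, and was highest among males in injured libraries 1 and 2 (difference -4.95 ± 1.00, adjusted p = 0.0469). Gsta2 likewise fell in females and rose in males, from 21.5, 19.9 and 30.9 to 111, 158 and 123 CPM (difference -3.24 ± 0.32, adjusted p = 0.00328). Adra1b, an adrenergic receptor gene, was low in all females, had 5 reads over the sham males and rose to 11.5, 9.16 and 0.691 CPM in injured males (fitted difference -8.10 ± 1.5, adjusted p = 0.0339). Gsta1 (-6.01 ± 1.02), its near-copy Gm10639 (-4.16 ± 0.64) and the lipoprotein receptor gene Lrp8 (-5.55 ± 1.03) completed the 5 lowest. The 5 highest were Gvin1, which has no read in sham females and so no measured difference, Slc2a13, Ipcef1, Lrrc66 and Wscd1. Of these, Ipcef1 was read at 3.9, 2.84 and 2.75 CPM in sham and 11.6, 10.9 and 11.1 CPM in injured females, and at 6.31, 3.76 and 3.74 CPM in sham and 1.65, 1.43 and 2.28 CPM in injured males. Its groups were apart in both sexes, in opposite directions (difference 3.19 ± 0.41, adjusted p = 0.00698).

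**Figure D5:**
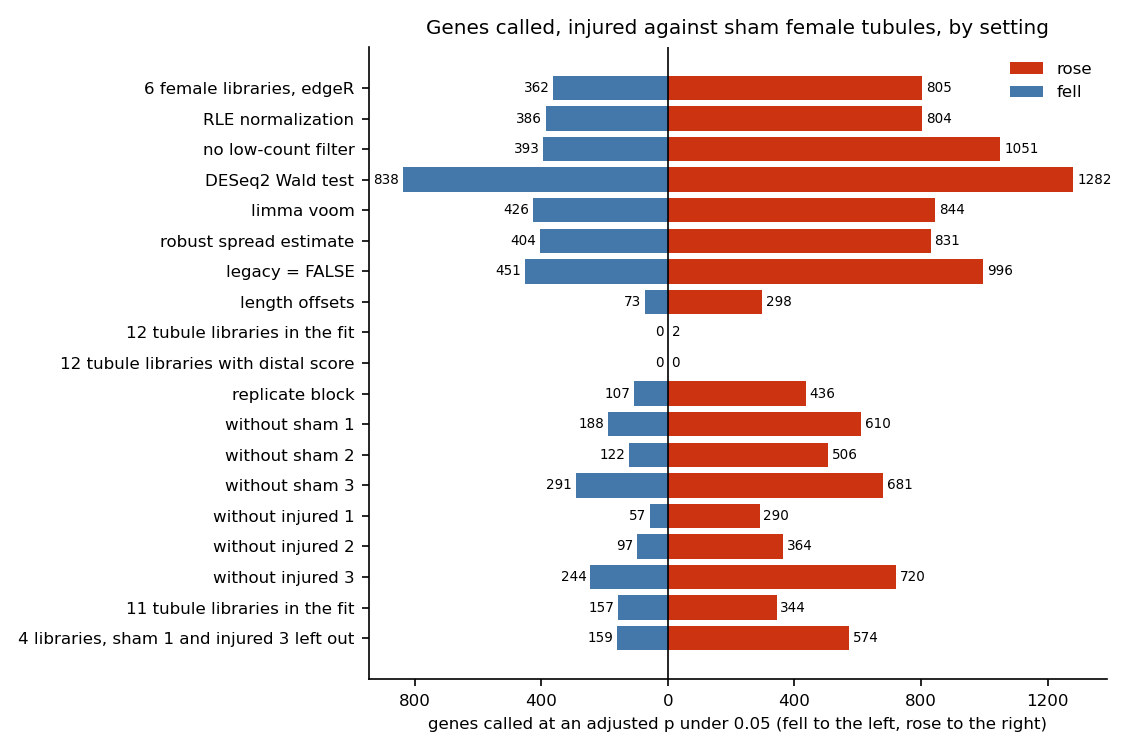
Number of genes past an adjusted p of 0.05 for injured against sham female tubules under each way of fitting, with falls to the left of 0 and rises to the right. Rises outnumber falls under each setting in which any gene passed, and the count goes from 1167 in the 6 female libraries to 2 when the male libraries join the fit.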

How the data were processed

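The 24 quantification files hold, per transcript, the estimated counts (expected counts, not normalised) and TPM that the authors deposited, which Salmon 0.13.1 produced per the submitters' processing notes, where the build is GRCm38. The authors' deposited comparison table, made with DESeq2 per the same notes (version not given in the sources used here), gives a log2 change, its error and an adjusted p-value per gene. Estimated counts of 136202 transcripts were summed to 53392 genes and rounded; 52175 genes have a record of the same versioned identifier in GENCODE M21, the source of the coordinates. Here edgeR 4.0.16 (R 4.3.3) fitted the 6 female tubule libraries alone: TMM, filterByExpr (minimum count 10, minimum total 15), 1 mean per group, quasi-likelihood F-test, Benjamini-Hochberg over all genes tested. An SE was obtained by dividing the absolute log2 change by the square root of F. The difference between sexes was fitted on 12 tubule libraries, with both technical libraries of sham male replicate 3 summed, as the labels describe. The protocol names 3 mice of each sex per group, so replicates are taken as separate mice. Libraries held 32592517 to 45219984 estimated reads, and their number limits precision more than counting error does.

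Members, lists and tests were chosen with earlier results of these data known. Named genes are the 10 largest rises and falls among called protein-coding genes of at least 5 CPM without overlap, up to 4 members of each list by adjusted p, any distal or tubular injury member, some fixed genes, and the 5 largest differences between sexes per direction. Aqp1, Miox, Fos, Jun, Egr2, Maff, Dusp5, Ftl1, Kynu, Me1, Maf, Slco1a1, Nphs1, Myh11, Ren1 and Anxa3 fall outside this rule and were chosen after their values were seen. Some genes are counted in their lists but not reported here by name.

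Same-numbered sham and injured libraries deviated together at correlations of -0.03, -0.05 and -0.09, and differently numbered ones at -0.07 to 0.11. The labels name no pairing by replicate number, and none was fitted in the main test. With 3 libraries per group these values cannot exclude a shared day or batch. On simulated data with a coefficient of variation of 0.2, below the 0.282 of the female libraries, the female comparison (17014 genes) recovered 63% of 2-fold and 100% of 4-fold changes with 1 false call, and the difference between sexes (17776 genes) 19% and 97% with 6. Alternatives were RLE scaling, no count filter, DESeq2 1.42.0, limma 3.58.1 voom, other spread estimates, length offsets, 12 libraries in the fit, a distal score, a replicate block and each library left out. Fits of 11, 10 and 4 libraries were added after seeing the data.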

Additional observations from a re-analysis of the deposited data

Results flagged for a closer look

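The response to injury differed between females and males, by the test of the difference in the fit of 12 tubule libraries, for 23 of the genes named here or in the closing paragraphs. Values are the female minus the male log2 change, and each passed an adjusted p under 0.05 in edgeR's quasi-likelihood test, among 157 such genes of 18369 (0.855%). Of genes of the distal segments, Casr differed by 2.26, Mecom by 1.66, Kcnj1 by 2.61, Aqp3 by 2.68, Sim1 by 2.20 and the anion exchanger gene Slc26a7 by 5.58. Among injury, detoxification and proximal genes, Spp1 differed by -3.08, the annexin gene Anxa3 by -2.97, Plin2 by -4.02, Gsta2 by -3.24, Gsta1 by -6.01, Gm10639 by -4.16 and Lrp2 by 1.61. The remaining genes were Hdc at -4.95, Adra1b at -8.10, Lrp8 at -5.55, the desaturase gene Scd2 at 2.09, Ipcef1 at 3.19, the inositol carrier gene Slc2a13 at 3.21, Lrrc66 at 2.94 and Wscd1 at 2.91. Gvin1 and Cdk1 passed too, but with 0 and 1 reads over the sham females no size of a difference is given. Adra1b had 5 reads over the sham males, so its fitted value is imprecise. The count of genes that differed went to 2 without sham female library 1 and injured female library 3 and to 5892 without injured male library 3, and how far these libraries bear on single genes was not tested beyond those fits.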

How the results depend on the processing

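The number of genes called in females, 1167 in the 6 libraries, was 2120 with DESeq2, 371 with length offsets, 543 with the replicate block, 2 with all 12 tubule libraries in the fit, 0 when that fit held the distal score, 501 with 11 libraries (injured male 3 left out), 733 with 4 libraries and 347 to 972 with 1 library left out; the other 5 settings stayed within 1.5 times. The 157 differences between sexes became 399 without the count filter, 1535 with DESeq2, 61 with length offsets, 54 with the replicate block, 2 with 10 libraries and 19 to 5892 with 1 library left out. The labels name no pairing by replicate number, so the block is not read as a paired effect, and no sample was crossed. The causes were not tested.

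Of 181 called list members none changed sign in any setting without the distal score. In females that score and the group cannot be told apart, so the values with the score do not place a change in a segment. With that score, log2 changes of genes that rose turned to Sox9 -1.08, Col18a1 -0.23, Dnajb1 -0.21, Atp6v1b1 -0.14, Slc4a1 -0.36, Gata2 -0.28, Gadd45b -2.11, Irf1 -0.43, Btg2 -1.16, Slc26a4 -1.14, Pfkp -0.34, Fos -0.19, Fdft1 -0.31, Slc38a2 -0.0054, Arc -0.74, Aqp2 -0.85, Krt7 -0.43, Krt18 -1.84, Pim1 -1.72, Atf3 -1.86, Slc12a1 -0.27, S100a11 -0.10, Cyr61 -1.27, Slc2a1 -1.06, Scnn1b -0.56, Mt2 -1.31, Mt1 -0.91, Rrad -0.98, Hsd11b2 -0.10, Pkm -0.090, Dusp5 -0.97, Nfkbiz -0.78, Gadd45a -2.11, Egr2 -1.73, Egr1 -0.82, Gdf15 -1.61, Maff -3.00, Aqp6 -1.30, Zfp36 -0.67, Epcam -0.78, Cd24a -0.71, Foxi1 -2.12, Lgals3 -0.64, Cldn8 -0.22, Ptges -0.17, Cd14 -0.77, Jun -0.46, Junb -0.40, Tubb2a -0.22, Tuba1a -0.55, Osgin1 -0.12 and Sox4 -0.70, and of genes that fell to Cldn10 0.040, Kynu 0.78, Gatm 1.13, Prom1 0.29, Maf 0.51 and Serpina3b 0.43. Among genes that did not pass, values there were Hmox1 -0.13, Cdkn1a -2.35, Cubn 0.10, Lrp2 0.32, Plin2 -0.52, Cxcl1 -0.94, Krt20 -12.85 and Krt8 -1.97, and over the fits that left out 1 library Cdkn1a ran from -0.10 (without injured library 2) to 0.48 and Lrp8 from -1.06 to 0.66 (without sham library 3). Of 146 called genes traced over the fits that left out 1 library, 68 passed in all 6 and 4 in none. Sham libraries were shallower and missed more genes of moderate depth, so low genes absent there may lie below detection. Sham library 2 and injured library 2 differed in this (7.86% against 2.96% without a read) at 41394327 and 41703814 reads. The reason was not tested.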

Other observations

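In further gene groups a few members passed, beside 4.76% of all genes that rose and 2.14% that fell. Of 24 cytoskeletal genes 6 rose and none fell, with 3 to 6 when single libraries were left out. The tubulin genes, which build microtubules, led them: Tubb2b was read at 6.05, 4.56 and 3.31 CPM in sham and 12.1, 13.2 and 15.1 CPM in injured libraries (log2 change 1.54 ± 0.23, adjusted p = 0.00807), Tuba1a at 6.15, 6.41 and 10.01 CPM in sham and 26.3, 31.9 and 16.9 CPM in injured libraries (log2 change 1.73 ± 0.27, adjusted p = 0.00958) and Tubb2a at 19.8, 36.2 and 29.6 CPM in sham and 55, 50.2 and 60.9 CPM in injured libraries (log2 change 0.95 ± 0.20, adjusted p = 0.0264). For each of the 3 every injured library lay above every sham library. Of 20 genes of cholesterol and fat synthesis 3 rose and 1 fell, and the risers fell to none without sham library 2 or injured library 1 or 3 in edgeR's test. Scd2, a fatty acid desaturase, went from 43.4, 28.6 and 22.5 to 66.2, 60.7 and 78.3 CPM (log2 change 1.12 ± 0.22, adjusted p = 0.0219), and Fdft1, squalene synthase, rose by 0.63 ± 0.14. Cyp51, a later enzyme of the same sterol pathway, fell, from 346, 469.8 and 515 to 253, 312 and 293 CPM (log2 change -0.63 ± 0.15, adjusted p = 0.0422), and passed only without sham library 1. Shares near those of all genes were found in 2 lists. Among 19 lysosomal genes the membrane protein gene Lamp2 fell (log2 change -0.37 ± 0.07, adjusted p = 0.0197) and the transcription factor gene Tfeb rose (log2 change 0.44 ± 0.10, adjusted p = 0.034), and among 19 cell death genes the inflammasome adaptor gene Pycard rose (log2 change 0.84 ± 0.18, adjusted p = 0.0269). Tfeb passed in none of the 6 fits that left out 1 library, Lamp2 only without sham library 3 or injured library 3, and Pycard only without sham library 1 or injured library 3. Tubb2a was lost without sham library 3 or any injured library. None of 19 genes known to differ between male and female kidneys passed in edgeR's test (8 at an unadjusted p under 0.05), while DESeq2 called 4 and limma voom 1.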
